A study of Mus musculus with 7 samples.

Results

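Parvalbumin interneurons are the fast-spiking GABA neurons of the cortex, and 10 genes that mark them were followed in the cortex RNA of APP/PS1 mice on a ketogenic diet (KD) or a control diet (CD). The genes were Pvalb, Lhx6, Pthlh, Erbb4, Eya4, Btbd11, Tmem132c, Plcxd3, Ank1 and Cemip, chosen from the 23413 gene symbols of the count files by name, with earlier KD against CD results of the same libraries in view. For that reason their KD against CD values are a description, and counts of members past a threshold stand beside the share of all genes with nothing read from them. The symbol Cemip is not used in the files, and its counts were read from 9930013L23Rik, which RefSeq lists as an older name of the same gene. All 10 genes were counted in every library, with at least 17 counts, and all 10 passed the filter on low counts that left 15881 genes.

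All 7 mice were APP/PS1 of the strain B6.Cg-Tg(APPswe,PSEN1dE9)85Dbo/Mmjax, which carry mutant human APP and presenilin transgenes, so the control diet group carried them too and no wild-type cortex was compared here. From 6 months of age the mice were housed singly on 1 of 2 diets for 7 months, until 13 months. CD (4 mice, labelled SD in the sample records) gave 74% of energy as carbohydrate, 10% as protein and 16% as fat, and KD (3 mice) gave less than 0.5% as carbohydrate, 10% as protein and 90% as fat. Each library came from 1 mouse and about 10 mg of frozen cortex, and the sex of these mice is not in the labels.

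In the cortex, parvalbumin interneurons (basket and chandelier cells) place inhibitory synapses on the soma, the proximal dendrites and the axon initial segment of pyramidal cells, fire at high rates with short spikes, and pace gamma rhythms. They descend from the medial ganglionic eminence, where the LIM homeodomain factor LHX6 sets up the shared programme of parvalbumin and somatostatin cells. ERBB4, the receptor for neuregulins, receives signals at the excitatory synapses onto these cells, and parvalbumin itself is a calcium buffer that shapes release from their terminals. In bulk tissue, fewer cells of a type and less RNA per cell cannot be told apart.

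The libraries held from 22272883 to 36614954 counts, with 2 of the 3 KD libraries below every CD library. No pair of libraries of a diet looked like 1 library deposited again, since a chi-square over genes, divided by their number, lay between 16.1 and 69.2. Xist was counted 7247 times or more in CD replicates 1 and 2 and KD replicates 1 and 2, and the Y-linked gene Ddx3y 7450 times or more in CD replicates 3 and 4 and KD replicate 3, so both kinds of library occur under both diets. Some libraries stood apart. KD replicate 3 had a summed level of 578 CPM (counts over the library total, on the usual per-million scale) over the 8 tested of 15 ventral forebrain genes, against 70.9 to 113 CPM in the other 6 libraries. Hap1 made up 414 CPM of the 578 and had 42.5 to 71.4 CPM in the other libraries. CD replicate 4 had 82.9 CPM over the 7 tested of 8 olfactory bulb genes. KD replicate 3 followed with 62.4 CPM, of which Trh made up 44.1, and the others had at most 12.9 CPM. CD replicate 3 and KD replicate 3 were low in the 8 oligodendrocyte genes, with 1078 and 1126 CPM, against 2092 to 4189 CPM elsewhere. Where leaving out CD replicate 4 or KD replicate 3 moved a member or a list median below by much, the value without it is given too in most cases, but not in all.

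Windows before the transcription starts of 3 members, 1 each, are shown as examples in which letters searched for stood. A window of Lhx6 and a second one of Btbd11 also held TAAT and are not shown. The 250 bases before each start come from RefSeq (GRCm38.p6, the mm10 genome), 5′ to 3′ on the gene's own strand. Capitals mark TAAT, the short homeodomain core, TAATTA, a longer form that contains it, and TGACG, the core of the cAMP response element that CREB binds, each read on both strands.
Pvalb, chr15:78206401-78206650, minus strand: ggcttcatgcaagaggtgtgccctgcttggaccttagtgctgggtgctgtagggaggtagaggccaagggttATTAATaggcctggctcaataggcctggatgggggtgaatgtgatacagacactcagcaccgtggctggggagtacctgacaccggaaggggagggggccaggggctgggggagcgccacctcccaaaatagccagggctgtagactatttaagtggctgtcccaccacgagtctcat
Btbd11, chr10:85386564-85386813, plus strand: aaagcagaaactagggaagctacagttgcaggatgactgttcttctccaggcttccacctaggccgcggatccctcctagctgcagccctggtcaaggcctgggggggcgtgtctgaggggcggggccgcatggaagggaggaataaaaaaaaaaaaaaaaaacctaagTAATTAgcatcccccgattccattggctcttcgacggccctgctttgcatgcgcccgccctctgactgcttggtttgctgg
Plcxd3, chr15:4375241-4375490, plus strand: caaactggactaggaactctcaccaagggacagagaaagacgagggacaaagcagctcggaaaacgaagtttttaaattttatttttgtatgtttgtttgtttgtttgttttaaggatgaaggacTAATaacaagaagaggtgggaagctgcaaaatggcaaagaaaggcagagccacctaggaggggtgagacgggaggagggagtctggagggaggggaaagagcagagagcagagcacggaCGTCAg
RefSeq starts were found for 9 of the 10 members, 14 windows in all, and Ank1 had no entry. TAAT stood in 5 of the 14 windows (1 each of Pvalb, Lhx6 and Plcxd3 and both of Btbd11), where 54.9% of the 32851 windows of all genes hold it. TAATTA stood in 1 (Btbd11; 4.84% of all windows), TGACG in 1 (Plcxd3; 17.8%), and the whole element TGACGTCA (1.55% of all windows), which contains it, in none. A match is a description of these letters and not a bound site.

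The members differed widely in abundance. Per kilobase of annotated exon, over all 7 libraries, Pvalb stood at 70.1 ± 29.4 CPM per kb (SD, n = 7), far above the rest. Erbb4 (7.29 ± 0.329 CPM per kb) and Plcxd3 (6.99 ± 2.22 CPM per kb) followed and lay within their spread of each other. Lhx6 (3.52 ± 0.510), Btbd11 (3.48 ± 0.474), Ank1 (3.04 ± 0.828), Cemip (2.91 ± 1.42) and Tmem132c (2.20 ± 0.327 CPM per kb) formed a group in which each neighbour lay within the spread of the next. Eya4 (1.08 ± 0.355) and Pthlh (0.645 ± 0.274 CPM per kb) were the least abundant.

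Over the whole list the diets lay close together. The fitted log2 fold change of KD against CD was below 0 for 8 of the 10 members, where 51% of all tested genes were below 0. The median over the members was -0.10 on the log2 scale, and 28.2% of all tested genes had a value at or below it, while the median over all tested genes was -0.0033. The summed level of the members ran from 326 to 416 CPM in the CD libraries and from 293 to 328 CPM in the KD libraries, so the ranges touched. The count of members at an unadjusted p-value under 0.05 was 1 (Ank1, lower in KD), where 3.19% of all tested genes had such a p-value and 1.52% had it and were lower in KD. After adjustment the count was 0, as it was for all tested genes (0%).

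**Figure D1:**
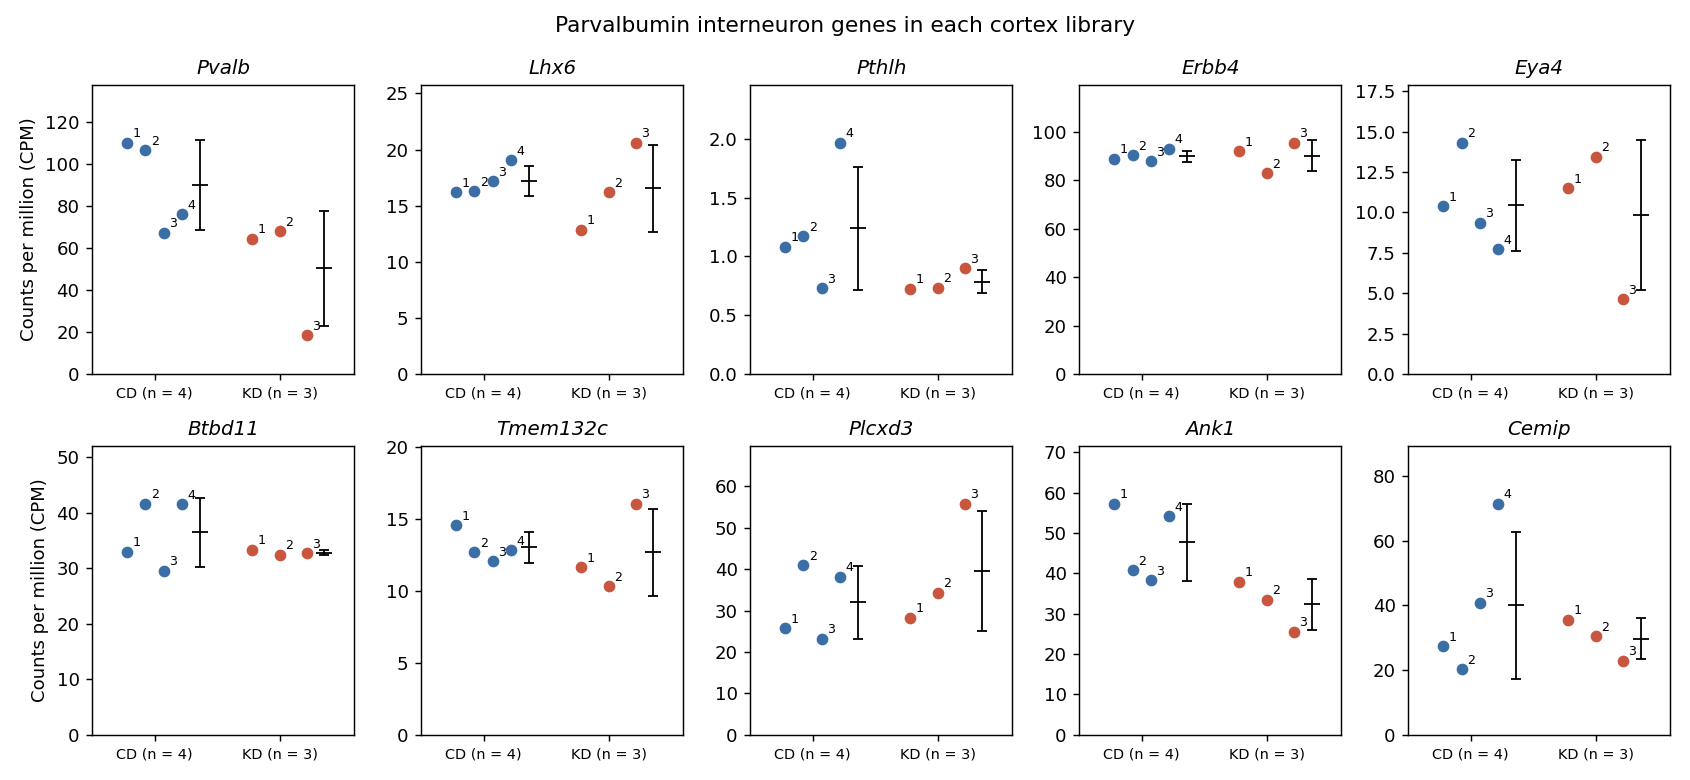
Levels in CPM (vertical axes from 0) of the 10 parvalbumin interneuron genes in each library, with CD in blue and KD in red, the replicate number beside each point, and the mean ± SD in black. Ank1 is the member whose 3 KD values, 25.5 to 37.9 CPM, all lie below its CD values, and the Pvalb value of KD replicate 3, 18.6 CPM, lies far below the other 6.

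Pvalb, which encodes parvalbumin, lies on the minus strand of chromosome 15 of mm10 from 78191114 to 78206400. It had 110.1, 107, 67.3 and 76.2 CPM in CD replicates 1 to 4 and 64.4, 67.9 and 18.6 CPM in KD replicates 1 to 3. KD replicates 1 and 2 lay close to CD replicate 3, and KD replicate 3 was alone at the bottom, so the groups overlapped. The means were 90.0 ± 21.5 CPM (SD, n = 4) in CD and 50.3 ± 27.5 CPM (SD, n = 3) in KD, which is 55.9% of the CD mean, with a log2 fold change of -0.82 (SE 0.41). Without KD replicate 3 the log2 fold change was -0.43. Beside this, KD replicate 3 was the library with the high ventral forebrain genes. The part of these markers in the Pvalb value was not tested. In KD replicates 1 and 2 the summed ventral forebrain genes, 71.2 and 70.9 CPM, were at the lower end of the CD range of 71.1 to 113 CPM.

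The 2 kinds of library by Xist gave the same order for Pvalb. Among the libraries with Xist counts, CD had 108 CPM on average (n = 2) and KD 66.2 CPM (n = 2). Among those with Ddx3y counts, CD had 71.7 CPM (n = 2) and the 1 KD library, KD replicate 3, 18.6 CPM. The order among these rests on that 1 library, which also had the high ventral forebrain genes. Pvalb and Ank1 were the 2 members for which every KD library lay below every CD library in both kinds, where 7.58% of all tested genes did. Pthlh and Btbd11 were below by their means in both kinds. The libraries of Btbd11 overlapped in both kinds, and those of Pthlh only among the libraries with Ddx3y counts. This was a split chosen after the counts had been seen. A fit that included Xist as a covariate gave Pvalb a log2 fold change of -1.17. That fit held KD replicate 3 and was not repeated without it.

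Ank1 encodes ankyrin 1, an adaptor that ties membrane proteins to the spectrin skeleton, and lies on chromosome 8 from 22974844 to 23150497. It had 57.3, 40.8, 38.3 and 54.2 CPM in the CD libraries and 37.9, 33.4 and 25.5 CPM in the KD libraries. Every KD value was below every CD value, by a narrow margin between KD replicate 1 and CD replicate 3. Ank1 was the 1 member of 10 with that separation, which 2.07% of all tested genes showed in this direction. The means were 47.6 ± 9.49 CPM (SD, n = 4) in CD and 32.3 ± 6.25 CPM (SD, n = 3) in KD, a log2 fold change of -0.55 (SE 0.18), and -0.39 without KD replicate 3. An antisense gene of the annotation, Gm15816, overlaps exons of Ank1, and since the strand setting of the counting is not stated, its reads could be counted with Ank1. The other genes of the ankyrin and spectrin list had 0 of 7 at an unadjusted p-value under 0.05 and a median log2 fold change of -0.03 (4 lower, 3 higher), which was 0.06 without KD replicate 3. Ank2 and Ank3, the widely expressed neuronal ankyrins, had log2 fold changes of 0.09 (SE 0.08) and -0.06 (SE 0.10).

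Pthlh encodes parathyroid hormone-like peptide, a secreted ligand made by basket and chandelier cells. It had 1.08, 1.17, 0.732 and 1.97 CPM in the CD libraries and 0.727, 0.735 and 0.898 CPM in the KD libraries. The KD values were close together and CD replicate 3 lay among them. These rest on 17 to 72 counts per library. The log2 fold change was -0.64 (SE 0.38), and -0.35 without CD replicate 4, the highest library. Its receptor gene Pth1r had a log2 fold change of -0.27 (SE 0.27), and Pth2r, a related receptor with another ligand, of 0.19 (SE 0.64).

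Cemip encodes a hyaluronan-binding protein needed for hyaluronan breakdown. It had 27.5, 20.2, 40.8 and 71.5 CPM in the CD libraries and 35.6, 30.6 and 22.9 CPM in the KD libraries. All KD values lay inside the CD range, and the CD mean of 40.0 ± 22.7 CPM (SD, n = 4) leaned on CD replicate 4. The log2 fold change was -0.40 (SE 0.38), and 0.01 without CD replicate 4. In that library the 6 meningeal fibroblast genes summed to 294 CPM, against 42.6 to 138 CPM in the other 6, and their part in the Cemip value was not tested. Among the other genes of hyaluronan synthesis, breakdown and binding, 6 of 9 were lower and 3 higher in KD, with 0 at an unadjusted p-value under 0.05 and a median log2 fold change of -0.20. Without CD replicate 4 that median was 0.09, on the other side of 0. The synthases Has1 and Has2 had log2 fold changes of -0.20 (SE 0.39) and 0.44 (SE 0.33).

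The lineage factor and the neuregulin receptor follow. Lhx6, on chromosome 2 from 36081953 to 36105408, had 16.2, 16.3, 17.2 and 19.1 CPM in the CD libraries and 12.9, 16.2 and 20.6 CPM in the KD libraries. KD replicates 1 and 3 were the lowest and the highest of all 7, and the log2 fold change was -0.05 (SE 0.15). It was -0.22 without KD replicate 3 and 0.10 without KD replicate 1. Erbb4, on chromosome 1 from 68032186 to 69108059, had 89.0, 90.4, 87.9 and 93.1 CPM in the CD libraries and 92.0, 83.0 and 95.5 CPM in the KD libraries. It was the steadiest member, with a 1.15-fold span over all libraries and a log2 fold change of 0.01 (SE 0.07). Erbb4 is also made by other interneurons, so its level is not that of parvalbumin cells alone. Of the other ligand and receptor genes of its family 9 of 10 were tested (Ereg had at most 3 counts). Of these 4 were lower and 5 higher in KD, with 0 at an unadjusted p-value under 0.05 and a median log2 fold change of 0.05, which was 0.12 without KD replicate 3. The ligands Nrg1 and Nrg2 had log2 fold changes of 0.20 (SE 0.17) and 0.26 (SE 0.18).

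A list of transcription factors of the interneuron lineage, before, beside and after LHX6, was read next. Of 12 listed, 10 were tested, 7 of them lower and 3 higher in KD, with a median log2 fold change of -0.03. Sox6, a factor needed for the maturation of parvalbumin and somatostatin cells, was the 1 with an unadjusted p-value under 0.05. It was higher in KD (log2 fold change 0.34, SE 0.12, adjusted p = 0.979 in edgeR's quasi-likelihood test). Satb1, which acts in the same lineage, had 65.1 CPM in KD replicate 3 and 174 to 289 CPM in the other 6 libraries, with a log2 fold change of -0.56 (SE 0.36). Nkx2-1 and Lhx8, factors of the embryonic eminence, were at or under 7 counts in every library and were not tested.

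Eya4, a transcriptional co-activator and phosphatase, had 10.4, 14.3, 9.36 and 7.73 CPM in the CD libraries and 11.5, 13.5 and 4.62 CPM in the KD libraries. The KD libraries held both near-highest and lowest values. The log2 fold change was -0.07 (SE 0.37) over all libraries, and 0.28 without KD replicate 3. Plcxd3, a phosphatidylinositol-specific phospholipase C domain protein, had 25.8, 40.9, 23.2 and 38.2 CPM in the CD libraries and 28.3, 34.3 and 55.9 CPM in the KD libraries. Its log2 fold change of 0.31 (SE 0.27) came down to -0.01 without KD replicate 3, the highest library.

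Btbd11, an ankyrin repeat and BTB domain protein that serves as a synaptic scaffold in interneurons, had 29.5 to 41.6 CPM in CD and 32.4 to 33.3 CPM in KD, all 3 KD values inside the CD range, and a log2 fold change of -0.14 (SE 0.13). Tmem132c, a transmembrane protein, had 12.0 to 14.6 CPM in CD and 10.3 to 16.1 CPM in KD, and a log2 fold change of -0.04 (SE 0.16). That value was -0.23 without KD replicate 3 and 0.08 without KD replicate 2. For Tmem132c the KD libraries split, with replicates 1 and 2 below every CD library and replicate 3 above them.

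**Figure D2:**
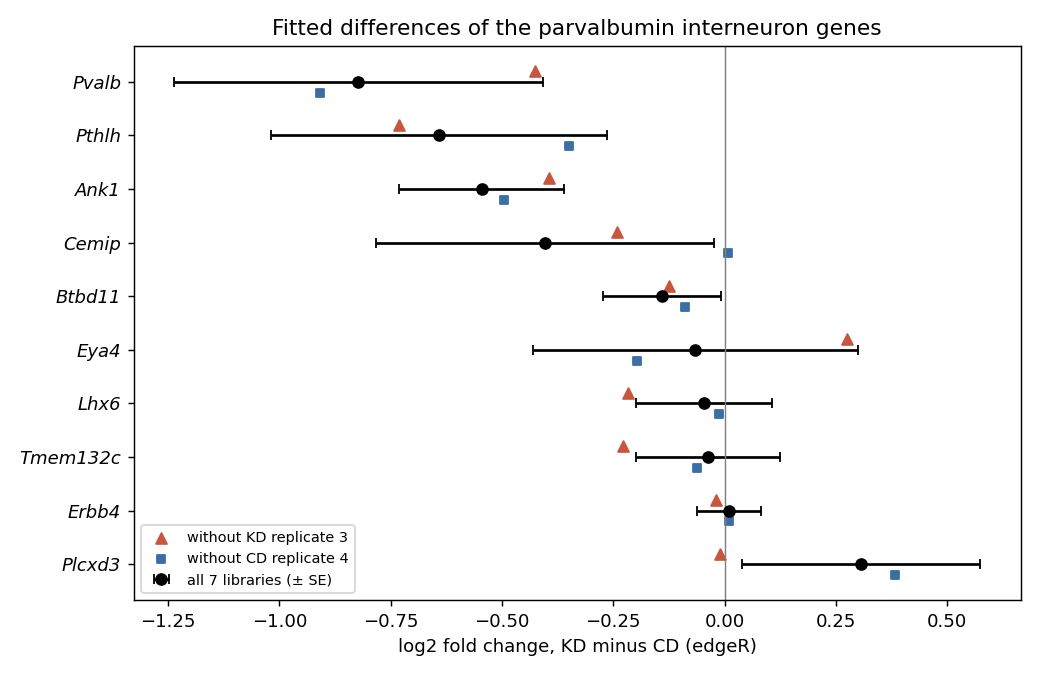
Fitted log2 fold change of KD minus CD (horizontal axis) of the 10 genes over all 7 libraries (black circles, bars are the standard error), without KD replicate 3 (red triangles) and without CD replicate 4 (blue squares). Pvalb moves from -0.82 to -0.43 without KD replicate 3, Cemip from -0.40 to 0.01 without CD replicate 4, and Erbb4 stays near 0.

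KD replicate 3 pulled the members apart rather than together. It held the highest value of 4 members (Lhx6, Erbb4, Tmem132c and Plcxd3) and the lowest of 3 (Pvalb, Eya4 and Ank1). Without it 9 of the 10 members had a log2 fold change below 0, and without CD replicate 4 as well, 7 of 10 did. A score for each library, the mean over the members of log2 CPM standardised over the 7 libraries, was 0.60 in CD replicate 4, 0.46 in CD replicate 2, 0.15 in CD replicate 1, -0.16 in KD replicate 3, -0.27 in KD replicate 1, -0.38 in CD replicate 3 and -0.40 in KD replicate 2. CD replicate 3 thus lay among the KD libraries.

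Members did not follow each other closely over the libraries. Of the 45 pairs, 26 had a positive Pearson correlation of log2 CPM over the 7 libraries, with a median of 0.15 and a range from -0.69 to 0.83, all points sharing the same 7 libraries. Pvalb went with Ank1 (0.83) and Eya4 (0.82), and against Plcxd3 (-0.61) and Lhx6 (-0.51). Lhx6 went with Plcxd3 (0.57) and Tmem132c (0.50), and against Eya4 (-0.69). In each of these pairs KD replicate 3 was the highest or the lowest library for both genes. The non-member genes whose log2 CPM was most like the score were Arl4c (0.98), Diras1 (0.98), Pptc7 (0.97), Pacsin2 (0.97), Amn (0.97) and Kctd8 (0.97). Most like Pvalb itself were Kcna1, a Kv1 potassium channel subunit of fast-spiking axons (0.995), and Fmn1 (0.99), named after their values were seen. Phyh, Kcng4, Mansc1 and Asb13 followed at 0.98 to 0.99. All were picked as the highest of the tested non-member genes, and the share of genes near them was not counted. Kcna1 had 457 CPM in CD and 340 CPM in KD on average, a log2 fold change of -0.42 (SE 0.20).

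Other genes of fast-spiking cells, on a list outside the 10 members, were mostly lower in KD. Of the 13 tested, 10 were lower and 3 higher, with a median log2 fold change of -0.49, and 5 had an unadjusted p-value under 0.05 (Syt2, Kcnc1, Kcns3 and Cplx1 lower, Sox6 higher), where 3.19% of all tested genes did. The median was -0.20 without KD replicate 3 and -0.16 without CD replicate 4 as well. After adjustment none of them passed 0.05 by the quasi-likelihood test of edgeR. The list was written with earlier results of these libraries known, so it is not independent evidence of a direction. Syt2, the calcium sensor for release from parvalbumin terminals, had 109.8, 91.3, 64.2 and 104.8 CPM in the CD libraries and 48.4, 50.1 and 14.6 CPM in the KD libraries. Every KD value was below every CD value, with KD replicate 3 lowest as for Pvalb, and the log2 fold change was -1.27 (SE 0.40, adjusted p = 0.979 in edgeR's quasi-likelihood test). Kcnc1, a Kv3 channel subunit that ends the spike, was lower in every KD library too, at 127 to 144 CPM against 150 to 162 CPM, a small log2 fold change of -0.20 (SE 0.08). Kcns3, a modifying potassium channel subunit, had a log2 fold change of -0.66 (SE 0.29), and Cplx1, a regulator of vesicle fusion, of -0.55 (SE 0.19).

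The genes of other interneurons are given next to Pvalb. Of the 9 genes shared by GABA neurons, 5 were lower and 4 higher in KD, with a median log2 fold change of -0.02. That median rested on KD replicate 3, since without it the value was -0.25. Gad1, a GABA-synthesising enzyme, had 508, 533, 471 and 681 CPM in the CD libraries and 399, 406 and 455 CPM in the KD libraries, so every KD value was lower (log2 fold change -0.37, SE 0.12, adjusted p = 0.979 in edgeR's quasi-likelihood test). Gad2, the other such enzyme, had a log2 fold change of 0.07 (SE 0.19), with its highest level, 258 CPM, in KD replicate 3. Of the 8 somatostatin cell genes 4 were lower and 4 higher, with a median log2 fold change of 0.04 (-0.09 without KD replicate 3) and 0 at an unadjusted p-value under 0.05. Sst itself had 26.7 to 37.5 CPM in CD and 28.8 to 45.4 CPM in KD (log2 fold change 0.15, SE 0.19), and Cort, a related peptide, -0.22 (SE 0.32). Of the 11 genes of Vip and other interneurons 7 were lower and 4 higher, with a median of -0.06 (0.04 without CD replicate 4) and 0 at an unadjusted p-value under 0.05, among them Vip at -0.07 (SE 0.25) and Calb2 at 0.52 (SE 0.79). Calb2, also on the thalamic list below, had 49.2 CPM in KD replicate 3 and 34.1 CPM in CD replicate 4. In the remaining libraries it had 6.76 to 9.64 CPM.

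**Figure D3:**
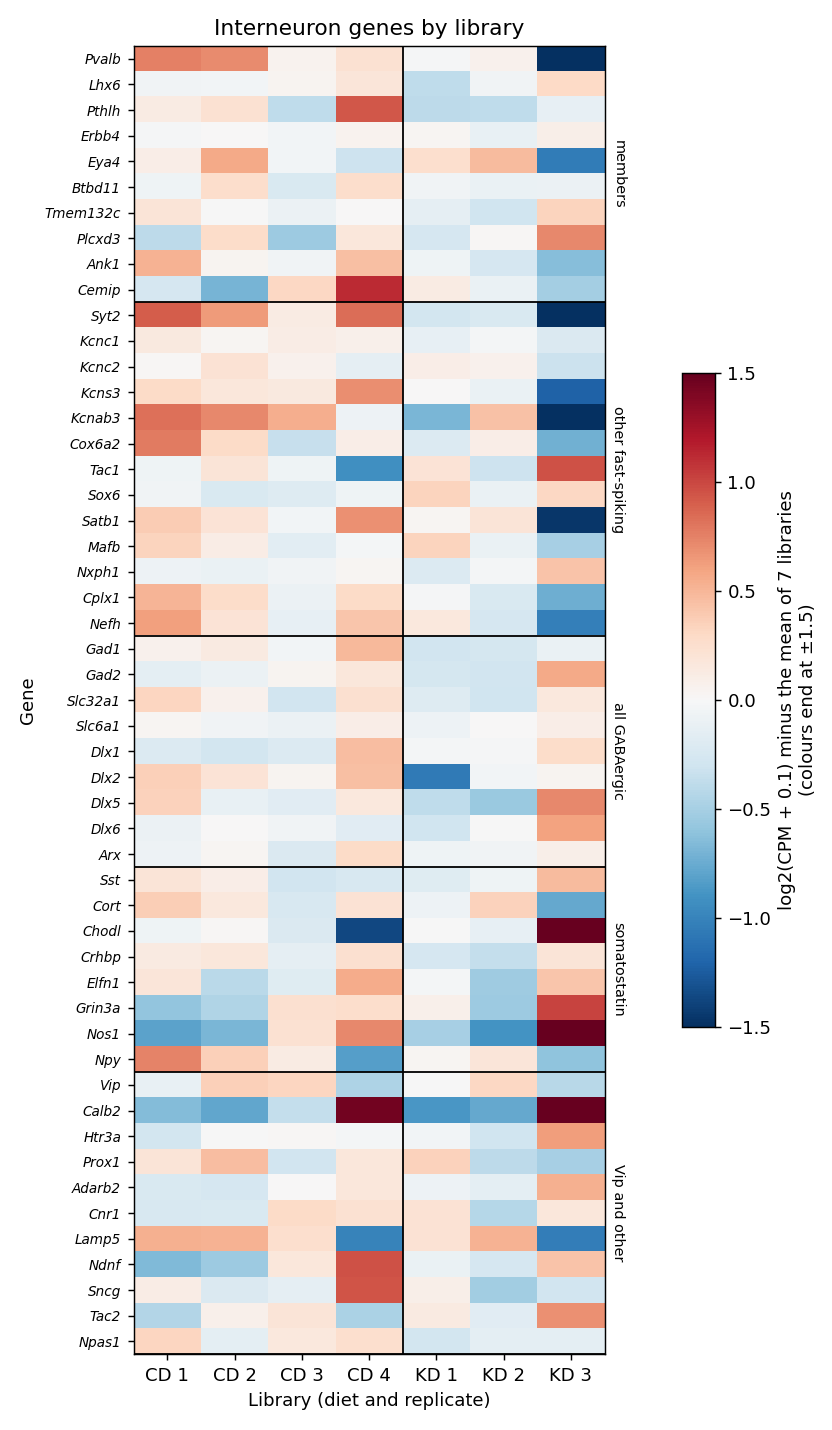
Log2(CPM + 0.1) of each interneuron gene minus its mean over the 7 libraries (colour, red above and blue below), with libraries in columns and genes in rows grouped as members, other fast-spiking genes, genes of all GABA neurons, somatostatin genes, and Vip and other interneuron genes. The column of KD replicate 3 is blue for Pvalb, Eya4, Ank1 and Syt2 and red for Lhx6, Plcxd3, Gad2 and Nos1.

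Ratios within a library set Pvalb against its neighbours without the scaling between libraries. Only their change between libraries can be read, since the genes differ in length. Pvalb over Sst was 2.94, 3.04, 2.52 and 2.75 in the CD libraries and 2.23, 2.17 and 0.410 in the KD libraries. Every KD ratio was below every CD ratio, with KD replicates 1 and 2 close to each other. Pvalb over Lhx6 was 3.91 to 6.79 in CD and 5.003, 4.19 and 0.904 in KD, and Pvalb over Gad1 was 0.112 to 0.217 in CD and 0.161, 0.167 and 0.0410 in KD, so both overlapped. Pvalb over Erbb4 overlapped as well, at 0.766 to 1.24 in CD and 0.700, 0.818 and 0.195 in KD. How often ratios of other gene pairs separate the diets was not tested. Lhx6 over Gad1 was 0.0280 to 0.0365 in CD and 0.0322, 0.0399 and 0.0453 in KD.

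**Figure D4:**
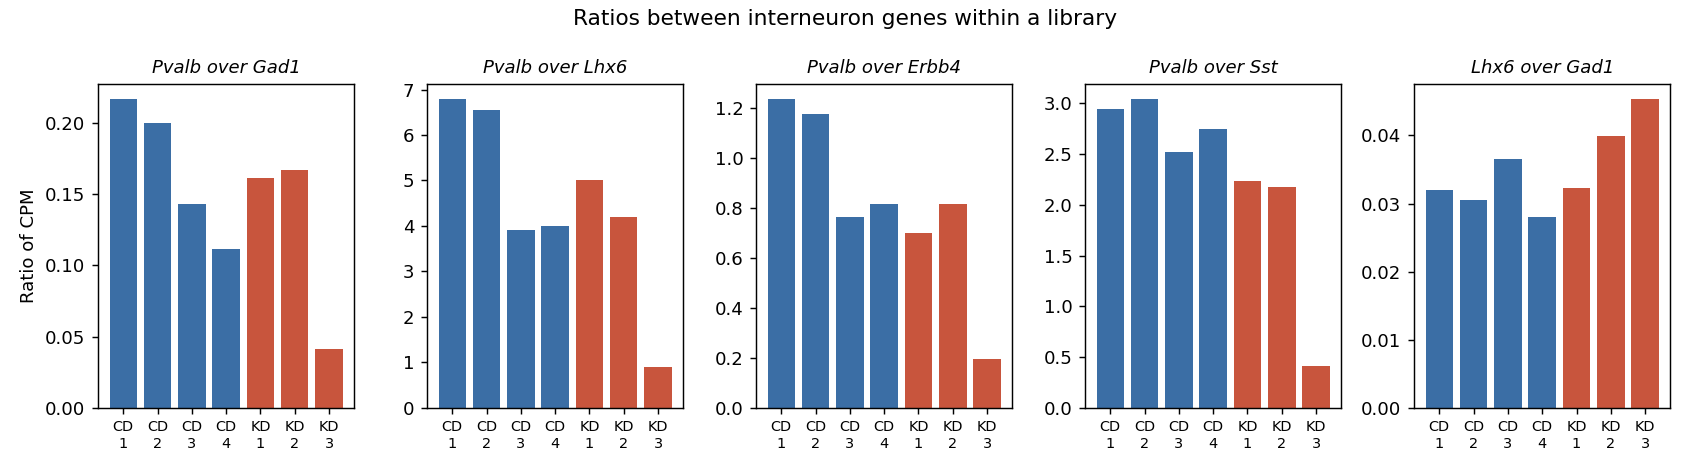
Ratios of CPM between pairs of interneuron genes (vertical axes from 0) in each library, with CD in blue and KD in red. Pvalb over Sst lies between 2.52 and 3.04 in the CD libraries and at 2.23, 2.17 and 0.410 in the KD libraries, while Lhx6 over Gad1 is highest in KD replicate 3.

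The perineuronal net, the matrix of hyaluronan and chondroitin sulfate proteoglycans that wraps most parvalbumin cells, was also measured. Of its 8 genes 3 were lower and 5 higher in KD, with a median log2 fold change of 0.06 (-0.02 without KD replicate 3) and 0 at an unadjusted p-value under 0.05. Acan, the aggrecan that marks these nets, had 9.72, 5.38, 5.86 and 11.9 CPM in the CD libraries and 4.96, 4.26 and 6.82 CPM in the KD libraries. The groups overlapped through KD replicate 3, and the log2 fold change was -0.61 (SE 0.30). Bcan, the brevican found in nets and in the diffuse matrix, had a log2 fold change of -0.11 (SE 0.13).

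The markers of other cells and regions are given for the libraries they move with. The 9 excitatory neuron genes summed to 1504 to 1968 CPM in CD and 1685 to 1998 CPM in KD (7 lower, 2 higher), with Slc17a7 at a log2 fold change of 0.08 (SE 0.14), Slc17a6 at -0.32 (SE 0.64) and Emx1 at -0.62 (SE 0.27). The 8 upper-layer genes summed to 365 to 667 CPM in CD and 473 to 766 CPM in KD, with Cux1 at -0.07 (SE 0.26), Cux2 at -0.31 (SE 0.24) and Scnn1a, with at most 7.78 CPM, at -2.31 (SE 0.74). The 8 deep-layer genes summed to 379 to 508 CPM in CD and 324 to 448 CPM in KD, with Bcl11b at 0.13 (SE 0.23) and Fezf2 at -0.44 (SE 0.24). Striatal genes (8 tested) summed to 121 to 177 CPM in CD and to 297 CPM in KD replicate 3, with Drd1 at 0.45 (SE 0.17) and Drd2 at 0.36 (SE 0.39). The ventral forebrain genes Ecel1, Gabrq and Baiap3 had 37.9, 7.68 and 67.9 CPM in KD replicate 3 and at most 1.71, 0.732 and 4.92 CPM in the other libraries, while Chat and Zic1 did not share that pattern (log2 fold changes -0.67, SE 0.57, and -0.81, SE 0.56). The thalamic list (7 genes) summed to 312 CPM in CD replicate 4, 213 CPM in KD replicate 3 and 66.4 to 101 CPM elsewhere, with its defining genes Tcf7l2 and Prkcd at 0.12 (SE 0.40) and 0.10 (SE 0.27). Slc17a6, also on the excitatory list, made up 167 and 103 CPM of the 2 high sums. Tcf7l2 had 3.74 CPM in CD replicate 4, 2.24 CPM in KD replicate 3 and 1.17 to 2.15 CPM elsewhere. Prkcd had 14.6, 13.4 and 6.29 to 11.9 CPM in the same order. Of the olfactory bulb genes, Eomes, Th and Shisa3 were highest in CD replicate 4, at 7.76, 10.6 and 6.72 CPM, and at 0.404, 0.943 and 0.763 CPM in KD replicate 3. Without KD replicate 3 the median log2 fold change of a list moved from -0.21 to 0.03 (excitatory) and from -0.23 to -0.008 (upper layer). It also moved from 0.28 to -0.02 (striatal) and from 1.11 to -0.47 (ventral forebrain). Without CD replicate 4 the median moved from -0.20 to 0.34 (thalamic) and from -1.53 to -0.33 (olfactory bulb).

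Among glial and vascular lists, the 8 astrocyte genes were 2 lower and 6 higher in KD (Gfap 0.04, SE 0.22, and Aqp4 0.11, SE 0.12), and the 8 oligodendrocyte genes were 8 lower (Mbp -0.36, SE 0.55). The median log2 fold change of the oligodendrocyte genes was -0.42, and -0.03 without KD replicate 3. The 8 microglial genes were 2 lower and 6 higher (Cx3cr1 0.22, SE 0.14, P2ry12 0.20, SE 0.19, Csf1r 0.36, SE 0.15, and Itgam 0.47, SE 0.16). The 6 endothelial genes were 5 lower and 1 higher (Cldn5 -0.31, SE 0.17, and Pecam1 -0.41, SE 0.19), the 6 meningeal genes 6 lower (Dcn -0.48, SE 0.96, and Col1a1 -0.59, SE 0.57), and the 6 choroid plexus genes 6 lower (Ttr -2.31, SE 1.45, Folr1 -0.997, SE 0.93, and Aqp1 -2.77, SE 0.82). Without CD replicate 4 the median log2 fold change moved from -0.18 to 0.02 (endothelial) and from -0.66 to 0.12 (meningeal). For the choroid plexus genes it moved from -0.81 to -0.18 without CD replicate 1. In that library Ttr had 425 CPM, against 5.68 to 45.4 CPM in the other 6. After adjustment no gene of these lists passed 0.05 by the quasi-likelihood test of edgeR, and 506 of all tested genes had an unadjusted p-value under 0.05. The part of these cells and regions in the members' values was not tested.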

How the data were processed

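Total RNA from cortex was made into stranded libraries, sequenced in 50-bp paired-end mode, aligned to mm10 with STAR and counted per gene by the authors. Tool versions, annotation and strand setting are not given in the sources used here. The values the authors deposited are raw counts per gene symbol and mouse, without normalization. Samples were grouped by the diet in their labels. CPM is counts over the library total of the file.

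KD was compared with CD by edgeR 4.0.16 (filterByExpr, TMM, estimateDisp, glmQLFit with robust=TRUE, glmQLFTest) in R 4.3.3, without covariates, and p-values were adjusted by Benjamini-Hochberg over 15881 genes, which held 99.97% of the counts. SE is the log2 fold change over the square root of F. Log2 CPM for correlations used a prior count of 2. Tested on simulated KD and CD counts, the fit called 62.1% of 195 genes given a log2 change of 1 (15738 genes tested) and 83.8% of 197 given a change of 2 (15719 tested). Unchanged genes made up 10.4% and 6.78% of the calls. These counts were drawn separately for each gene, without shifts shared by many genes of a library. The libraries here had such shifts, so these percentages need not hold for them. Alternatives used limma 3.58.1, DESeq2 1.42.0 and other settings given below.

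The members and the gene lists were chosen with earlier results of these data known. Named genes are the members, the first 2 tested genes of each list, list genes with an unadjusted p-value under 0.05, the 6 genes most like the member score, and Xist and Ddx3y. One gene that this rule names is not reported here. Others, such as Nkx2-1, Lhx8, Ereg, Nos1, Kcna1 and Fmn1, were named after their values were seen. Coordinates and exon lengths come from GENCODE M21 of the same genome. Replicates are separate mice. The p-values set the difference between the diets against the spread between mice, which edgeR estimates for each gene with the help of all tested genes.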

Additional observations from a re-analysis of the deposited data

Results flagged for a closer look

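Dixon's rule for a single distant library was applied to 34 values of the 4 CD libraries, and chance alone would pick out about 1.7 of them. It picked out none of the 10 members and not the member score. It picked out the mean log2 CPM of the 8 oligodendrocyte genes, which was 5.92 in CD replicate 3 and 7.72 to 7.92 in the remaining CD libraries, so that the distance to the nearest one made up 0.90 of the whole range. In that library Pvalb (67.3 CPM) and Ank1 (38.3 CPM) were the lowest of the CD group, and the part of the oligodendrocyte genes in those values was not tested. The 3 KD libraries were not examined this way.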

How the results depend on the processing

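Of the 18 alternatives set for every member, the log2 fold change kept its sign in all 18 for 4 members (Pvalb, Ank1, Pthlh and Btbd11). It kept it in 17 for Lhx6 and Plcxd3 and in 15 for Erbb4, Eya4, Tmem132c and Cemip. When single replicates were left out, Pvalb ran from -1.11 (without KD replicate 2) to -0.43 (without KD replicate 3), Ank1 from -0.68 to -0.39, Cemip from -0.61 to 0.01 and Eya4 from -0.37 to 0.28. The median over the members was -0.10 and ran from -0.26 (without KD replicate 2) to -0.057 (without CD replicate 2), and the count of members lower in KD, 8, ran from 7 to 9. Levels relative to Gad1, Gad2 and Slc32a1 of the same library were a setting added after the data were seen. They gave a median of 0.027 and 4 members lower, with Pvalb at -0.83 and Ank1 at -0.37. These are differences of mean log2 CPM, not fitted fold changes as in the other settings. Relative Pvalb was -0.69 and -0.58 in KD replicates 1 and 2, inside the CD range of -0.99 to -0.24. In KD replicate 3 it was -2.93. Relative Ank1 was -1.455 and -1.597 in KD replicates 1 and 2, inside the CD range of -1.63 to -1.185. In KD replicate 3 it was -2.474. The count of genes at an unadjusted p-value of at most 0.01, 51, was 103 with the likelihood-ratio test, 120 with DESeq2, 236 with Xist as a covariate and, with single replicates left out, between 19 (CD replicate 1) and 211 (CD replicate 3). The likelihood-ratio test gave 1 gene at an adjusted p-value under 0.05, and the count was 0 in edgeR's quasi-likelihood test. The cause was not tested. Nothing in the labels pairs mice by number, and the deviations of mice with the same number correlated at 0.25, 0.19 and 0.098. A fit with the replicate number as a block, on replicates 1 to 3, gave 182 genes with an unadjusted p-value of at most 0.01, a member median of -0.076 with 7 members lower, and Pvalb at -1.08. Leaving out CD replicate 4 and KD replicate 3 together gave -0.51 for Pvalb, -0.34 for Ank1 and 0.18 for Cemip. Depth limits Pthlh, the member with the fewest counts, 17 to 72 per library.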
